A study of Homo sapiens with 10 samples.

Results

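The genes described here encode heat shock proteins and other chaperones. They were chosen by symbol among probe sets that carry exactly 1 gene symbol: the HSPA, HSPB, HSPD, HSPE, HSPH and HSP90 genes, the DNAJA, DNAJB and DNAJC genes, CCT2 to CCT8 and BAG1 to BAG6, without pseudogenes. Each gene was read from its probe set of highest mean level over all arrays. The rule found 81 of the 19775 genes on the array, and 66 of the 81 lay at or above the median gene in mean level and were tested. The tested genes were 9 of 12 in the HSP70 and HSP110 class, all 3 HSP90 genes, 2 of 7 small heat shock protein genes, both HSP60 and HSP10 genes, all 4 DNAJA, 9 of 12 DNAJB and 23 of 27 DNAJC genes, all 8 CCT genes and all 6 BAG genes. HSPA1A, HSPA1B, HSPA8 and TCP1 are not analysed here, because each probe set that names one of them names another gene too.

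Chaperones bind unfolded or partly folded proteins and release them, in many cases in cycles driven by ATP. HSP70 proteins receive clients from J proteins (DNAJ), and exchange factors such as the BAG and HSP110 proteins reset them. HSP90 acts later on kinases and steroid receptors, the TRiC ring made of CCT subunits folds actin and tubulin, HSP60 with HSP10 folds proteins inside mitochondria, and small heat shock proteins hold unfolded proteins without ATP. Under heat or other protein-damaging stress the transcription factor HSF1 binds heat shock elements and raises many of these genes together, and cancer cells often carry high levels of the proteins.

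The study sorted human gastric cancer cells by how well they keep out a Hoechst dye. The side population (SP, 4 arrays, lettered a to d) is the dye-poor fraction, which exports the dye through ATP-binding cassette transporters and is often examined for stem cell features. The non-side population (non-SP, 4 arrays, lettered a to d) is the dye-bright fraction, and 2 further arrays (a and b) hold cells that were not sorted. The titles give the SP and non-SP arrays of a letter a shared replicate group name (SPa to SPd). The unsorted arrays carry other group names (UCPa and UCPb). AGS and MKN 45, both established gastric carcinoma lines, are named together as the origin of every sample, but the source label names AGS alone for 8 arrays and no line for SP a and SP b. No label gives a treatment or a genetic change in any group, and all cells were detached with trypsin. Since no label speaks of separate cultures, the p-values measure only the spread between these samples, and that spread may be technical.

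The submitters had scaled the intensities, and array medians lay between 58.7 and 85.4. The 3' to 5' ratio of the actin control was 3.34 in SP a and 0.987 to 1.28 on the other 9 arrays. The 5' probe set for 18S ribosomal RNA read 851 in SP d, 563 in non-SP c and 275 and 828 in the unsorted arrays, against at least 22182 on the rest. All 6 epithelial markers lay above the array median on every array, with summed intensities of 96555 to 122909 in SP cells, 84587 to 142403 in non-SP cells and 118940 to 129961 in unsorted cells. None of 4 blood and none of 4 endothelial markers did so, and 1 of 6 fibroblast markers did. All 4 genes linked to MKN 45 did as well, with sums of 16260 to 26053 in SP cells, 13444 to 27141 in non-SP cells and 18778 to 19051 in unsorted cells. Among these 4, CEACAM5 read 3072, 1603, 2080.5 and 2340.0 in SP cells, 2912, 1189.6, 3374 and 3180.1 in non-SP cells, and 339.6 and 477 in unsorted cells, so that every sorted array was above both unsorted arrays. It was 5.43-fold as high in SP as in unsorted cells (2.44 ± 0.39 on the log2 scale, SE, adjusted p = 0.00754, limma) and 6.06-fold as high in non-SP as in unsorted cells (2.60 ± 0.39, adjusted p = 0.00304). MET was also above both unsorted arrays on every sorted array, with differences of 1.28 ± 0.35 for SP and 0.90 ± 0.35 for non-SP cells (adjusted p = 0.065 and 0.165). CEACAM6 was below both on every sorted array (-0.45 ± 0.20 and -0.45 ± 0.20), and CDH17 overlapped with them (0.74 ± 0.55 and 0.25 ± 0.55).

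The promoter sequences show which of these genes carry the letters of a heat shock element, and they belong to genes whose values follow. They come from RefSeq (GRCh38.p14) as the 250 bases before an annotated start, and 72 of the 81 genes had a window there. The 3-unit element was searched as GAA, any 2 bases, TTC, any 2 bases and GAA, or as the same pattern beginning and ending with TTC, which is its form on the other strand. The 2-unit element was searched as GAA, any 2 bases and TTC, or TTC, any 2 bases and GAA, each of which reads the same on both strands, so that every 3-unit match also holds 2-unit matches. Capitals mark matches, the 3-unit ones in HSPA6, HSP90AA1, HSP90AB1, HSPD1 and DNAJB6 and the 2-unit ones in DNAJB1, while BAG3 and HSPA5 held neither pattern in this window.
HSPA6: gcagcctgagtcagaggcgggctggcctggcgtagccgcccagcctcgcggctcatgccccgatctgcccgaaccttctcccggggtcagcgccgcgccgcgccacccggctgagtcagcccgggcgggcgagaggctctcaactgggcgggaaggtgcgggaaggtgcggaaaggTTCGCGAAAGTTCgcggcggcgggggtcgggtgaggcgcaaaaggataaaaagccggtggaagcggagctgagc
HSP90AA1: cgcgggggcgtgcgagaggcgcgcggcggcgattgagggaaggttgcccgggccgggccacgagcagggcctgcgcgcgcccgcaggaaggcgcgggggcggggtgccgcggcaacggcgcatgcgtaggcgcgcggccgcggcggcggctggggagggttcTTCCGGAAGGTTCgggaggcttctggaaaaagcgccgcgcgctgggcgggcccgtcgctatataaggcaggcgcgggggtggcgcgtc
HSP90AB1: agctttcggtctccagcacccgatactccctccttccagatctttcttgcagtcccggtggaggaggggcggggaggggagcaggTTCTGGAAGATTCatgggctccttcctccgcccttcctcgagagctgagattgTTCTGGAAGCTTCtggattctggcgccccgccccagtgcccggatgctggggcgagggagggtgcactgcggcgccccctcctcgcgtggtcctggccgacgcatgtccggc
HSPD1: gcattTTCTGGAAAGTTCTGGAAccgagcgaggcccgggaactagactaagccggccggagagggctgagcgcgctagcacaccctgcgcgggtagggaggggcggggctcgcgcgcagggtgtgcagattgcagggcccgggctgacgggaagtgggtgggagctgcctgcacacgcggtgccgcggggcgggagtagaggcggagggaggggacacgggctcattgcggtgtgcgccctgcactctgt
DNAJB6: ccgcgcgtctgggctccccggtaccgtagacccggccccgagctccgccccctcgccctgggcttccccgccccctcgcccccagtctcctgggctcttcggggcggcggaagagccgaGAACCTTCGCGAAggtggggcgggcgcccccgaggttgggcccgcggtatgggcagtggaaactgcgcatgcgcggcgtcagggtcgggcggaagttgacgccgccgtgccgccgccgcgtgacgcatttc
DNAJB1: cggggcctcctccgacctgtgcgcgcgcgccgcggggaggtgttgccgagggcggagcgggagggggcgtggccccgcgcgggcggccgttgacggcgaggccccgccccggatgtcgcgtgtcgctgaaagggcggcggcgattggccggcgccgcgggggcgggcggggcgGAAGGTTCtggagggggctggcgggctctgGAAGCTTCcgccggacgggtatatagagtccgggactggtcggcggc
BAG3: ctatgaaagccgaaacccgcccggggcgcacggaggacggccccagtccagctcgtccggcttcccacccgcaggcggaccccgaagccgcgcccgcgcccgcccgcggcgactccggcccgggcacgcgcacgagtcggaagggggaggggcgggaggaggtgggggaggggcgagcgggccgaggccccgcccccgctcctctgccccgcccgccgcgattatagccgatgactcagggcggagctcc
HSPA5: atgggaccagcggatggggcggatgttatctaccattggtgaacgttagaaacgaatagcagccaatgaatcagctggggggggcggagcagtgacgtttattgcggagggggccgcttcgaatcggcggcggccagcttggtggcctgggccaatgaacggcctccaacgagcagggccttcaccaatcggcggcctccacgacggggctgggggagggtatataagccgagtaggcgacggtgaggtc

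The windows lie at chr1:161524290-161524539 (plus strand) for HSPA6, chr14:102087045-102087294 (minus strand) for HSP90AA1, chr6:44247693-44247942 (plus strand) for HSP90AB1, chr2:197499841-197500090 (minus strand) for HSPD1 and chr7:157336754-157337003 (plus strand) for DNAJB6. Those of DNAJB1, BAG3 and HSPA5 lie at chr19:14518398-14518647 (minus strand), chr10:119651130-119651379 (plus strand) and chr9:125241344-125241593 (minus strand). The match in HSPA6 lay 74 to 62 bases before the start and that in HSP90AA1 88 to 76 bases before it. HSP90AB1 had a pair of matches, at 165 to 153 and 112 to 100 bases. The DNAJB6 match lay at 131 to 119 bases, and overlapping matches in HSPD1 ran from 245 to 228 bases before the start. DNAJB1 had its 2-unit matches at 77 to 70 and 47 to 40 bases. In all, the 3-unit letters stood in the windows of 5 of the 72 chaperone genes (6.94%), the 5 printed above, against 0.557% of all genes with a window. The 2-unit letters stood in 20 of the 72 (27.8%), against 14% of all genes. Of 11 chaperone genes known to be induced by heat, which all had a window, 3 held the 3-unit and 8 the 2-unit letters. Of the 7 CCT genes with a window, 0 held the 3-unit and 2 the 2-unit letters.

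The first comparison asked whether chaperone genes differ between SP and non-SP cells. No chaperone gene passed at an adjusted p under 0.05 (limma, Benjamini-Hochberg over the 9888 genes tested), and no other gene did either (0% of all genes in each direction). At an unadjusted p under 0.05 there were 3 of 66 chaperone genes (4.55%), namely BAG6, DNAJC16 and DNAJC7, against 4.35% of all genes. The smallest adjusted p was 0.997 among chaperone genes. Their median difference was 0.00 on the log2 scale with a range of -0.62 to 0.65, beside a median of 0.05 over all genes. The difference was above 0 for 33 of 66 (50%), against 57.3% of all genes. In these bulk samples, fewer cells of a type and less RNA per cell cannot be told apart.

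The other comparisons set each sorted population against unsorted cells, and they share the same 2 unsorted arrays. SP cells differed from unsorted cells in 242 genes (2.45%), of which 187 were higher (1.89%) and 55 lower (0.556%), and 0 of 66 chaperone genes were among them. At an unadjusted p under 0.05 limma gave 8 of 66 (12.1%), against 17.2% of all genes. Non-SP cells differed from unsorted cells in 362 genes (3.66%), 243 higher (2.46%) and 119 lower (1.2%), again with 0 of 66 chaperone genes. Here 7 of 66 (10.6%) had an unadjusted p under 0.05, against 19.6% of all genes. The difference was above 0 for 39 of 66 (59.1%) in SP cells, against 53.4% of all genes, and for 34 of 66 (51.5%) in non-SP cells, against 49.1% of all genes. The median over the chaperone genes was 0.09 for SP cells and 0.03 for non-SP cells, beside 0.04 and -0.01 over all genes. CEACAM5 moved with both comparisons, as given above, and the part of the line makeup of the samples in any difference between sorted and unsorted cells was not tested.

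These counts moved with single arrays. In SP against unsorted cells, 2 chaperone genes passed without non-SP b (HSPA2 and DNAJC27) and 2 without non-SP c (HSPA2 and DNAJB1). In non-SP against unsorted cells, HSPA2 passed without non-SP b and HSPA4 without non-SP d. The SP comparison called 100, 132 and 139 genes in all without SP a, b and c, 403 and 402 without non-SP b and c, and 10 and 17 without unsorted a and b. The non-SP comparison called 228, 665 and 225 genes without non-SP a, c and d, and 17 and 40 without unsorted a and b. With so few arrays, in particular 2 of unsorted cells, their number limits the precision.

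**Figure D1:**
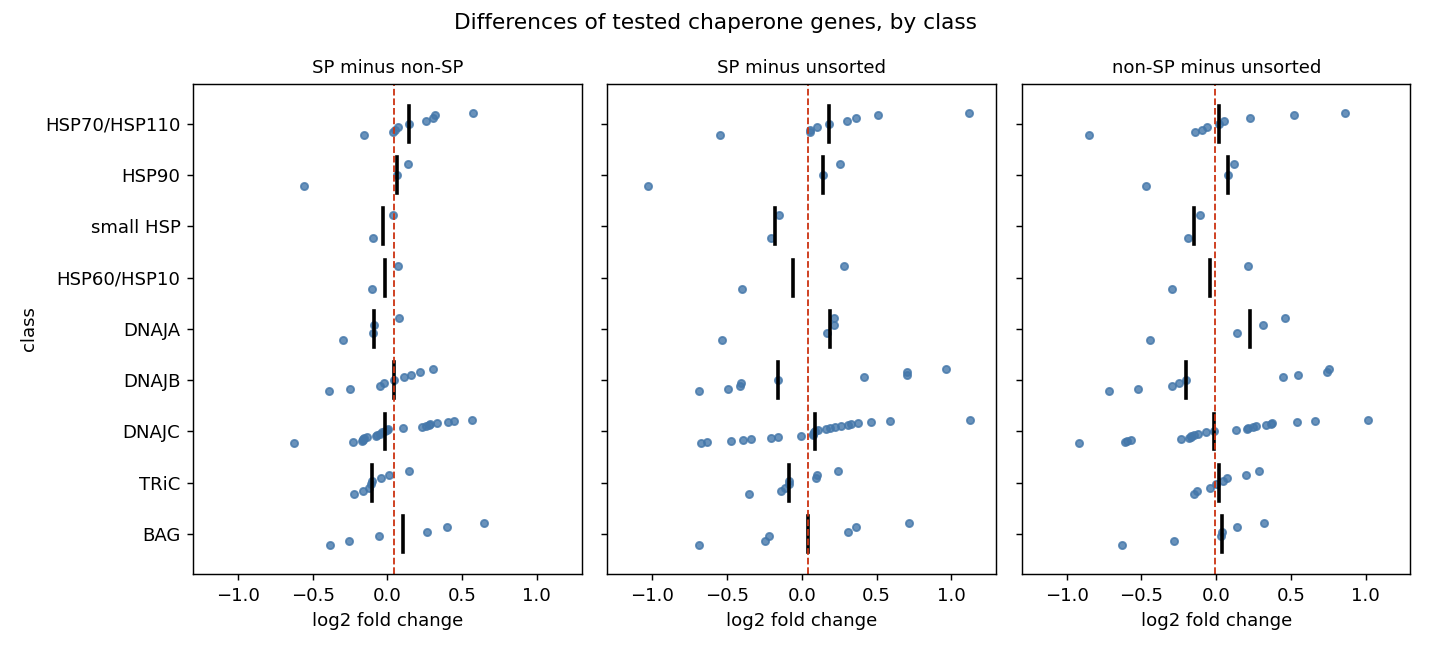
Log2 fold changes of the 66 tested chaperone genes, one point per gene by class, for SP minus non-SP, SP minus unsorted and non-SP minus unsorted. Black bars mark class medians and the dashed line the median over all 9888 genes tested. In SP minus non-SP every point lies between -0.62 and 0.65.

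Among the HSP70 and HSP110 genes, HSPA6 encodes a strictly stress-inducible HSP70. It had intensities of 10732, 20358, 7418 and 5899 in SP a to d, 8047, 11076, 4991 and 4398 in non-SP a to d, and 5632 and 8545 in unsorted a and b. SP was above non-SP at all 4 letters, but the groups overlapped, and arrays a and b were the higher ones of both populations. The mean was 11102 ± 6493 in SP cells, 7128 ± 3079.7 in non-SP cells and 7088 ± 2059.6 in unsorted cells (SD, n = 4, 4 and 2, as in all later means). The SP minus non-SP difference was 0.57 ± 0.37 (log2, SE, as in all later differences) and did not pass (adjusted p = 0.997). It was 0.22 without SP b and -0.01 over the arrays with an AGS source label. A second HSPA6 probe set gave 0.60. Whether these probes also bind transcripts of its close copy HSPA7 was not tested.

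HSPA6 was 1 of 5 chaperone genes with SP above non-SP at all 4 letters (7.58%), beside BAG3, DNAJB9, DNAJC1 and DNAJC16, against 5.25% of all genes. SP was below non-SP at all 4 letters for CCT6A and DNAJA4 (3.03%), against 3.71% of all genes.

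HSPA2, an HSP70 best known from the testis, had the smallest p of all chaperone genes in SP against unsorted cells. It read 2618, 2307, 1853 and 1554 in SP cells, 2061, 1204, 2005 and 1709 in non-SP cells, and 834 and 1052 in unsorted cells. All 8 sorted arrays were above both unsorted arrays, and SP and non-SP overlapped. HSPA2 was 2.17-fold as high in SP as in unsorted cells (1.12 ± 0.29, adjusted p = 0.0567) and 1.82-fold as high in non-SP as in unsorted cells (0.86 ± 0.29, adjusted p = 0.116). Neither passed over all arrays. In SP against unsorted cells the adjusted p was 0.030 without non-SP b and 0.0481 without non-SP c, and in non-SP against unsorted cells it was 0.0485 without non-SP b.

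HSPA4, a cytosolic HSP110, read 6199, 5992, 5450.5 and 5390.0 in SP cells, 4786, 4117, 3706 and 6379 in non-SP cells, and 8309.7 and 8473 in unsorted cells. Every sorted array was below both unsorted arrays. The difference was -0.55 ± 0.24 for SP against unsorted cells (adjusted p = 0.264) and -0.85 ± 0.24 for non-SP against unsorted cells (adjusted p = 0.0674, and 0.0415 without non-SP d). The 3 other HSPA4 probe sets gave -0.14, -1.06 and -2.55 for SP and -0.64, -1.09 and -1.39 for non-SP cells. The last of these read 140 in SP a and 882 to 3814 on the other arrays.

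HSPH1, the heat-inducible HSP110, read 8028, 14692, 6832 and 5899 in SP cells, 5330.1, 9747, 5332 and 7037 in non-SP cells, and 6865 and 7817 in unsorted cells. Array b was the highest of both sorted populations, and all groups overlapped. Its SP minus non-SP difference was 0.32 ± 0.28. Against unsorted cells the probe set used gave 0.18 for SP and -0.14 for non-SP cells. Another HSPH1 probe set read 761 to 3250 on the sorted arrays, all below 3592 and 3884 in unsorted cells. It gave -1.15 for SP and -1.46 for non-SP cells, and a dimmer one gave 0.48 and 0.16. HSPA5, the BiP chaperone of the endoplasmic reticulum, averaged 37565 ± 7113 in SP cells, 36801 ± 7839.6 in non-SP cells and 35684 ± 1491 in unsorted cells. HSPA9, the mitochondrial HSP70 mortalin, averaged 12984 ± 1755 in SP cells, 12530.0 ± 2999.9 in non-SP cells and 10479 ± 102 in unsorted cells. Their SP minus non-SP differences were 0.04 ± 0.20 and 0.07 ± 0.20. Over the 9 tested genes of this class the median SP minus non-SP difference was 0.15, above 0 in 8 of 9, against 57.3% of all genes, and 0 of 9 passed. The median was 0.34 within letters a and b (7 of 9 above 0) and 0.005 within letters c and d (5 of 9).

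None of the 3 HSP90 genes passed in a comparison of the 3 groups. HSP90AA1, the inducible cytosolic form, read 49268, 47027, 32858 and 37603 in SP cells, 43678, 44547, 26252 and 46725 in non-SP cells, and 36515 and 38004 in unsorted cells. Non-SP c was the lowest of the 10 arrays, and the groups overlapped. HSP90AB1, the constitutive cytosolic form, averaged 28808 ± 5674 in SP cells, 26283 ± 6301 in non-SP cells and 23767 ± 763 in unsorted cells. The SP minus non-SP differences were 0.07 ± 0.21 for HSP90AA1 and 0.14 ± 0.21 for HSP90AB1.

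HSP90B1, the form of the endoplasmic reticulum known as GRP94, had the lowest SP minus unsorted value of the tested chaperone genes. It read 5245, 14394, 11399.7 and 18269 in SP cells, 25169, 12386, 14518 and 16353 in non-SP cells, and 22398 and 23252 in unsorted cells. SP a was far below every other array, and all SP arrays lay below both unsorted arrays. The SP minus unsorted difference was -1.03 ± 0.40 (adjusted p = 0.191) and was -0.66 without SP a. The SP minus non-SP difference was -0.56 ± 0.33, and -0.19 without that array. A second HSP90B1 probe set gave 0.79 for SP minus unsorted. SP a was also low for another HSP90AB1 probe set, which read 2129 there and 15512 to 40831 on the other 9 arrays, while the one used for the gene read 30588, 34988, 21398 and 28258 in SP a to d. SP a is the array with the high actin 3' to 5' ratio, whose part in these values was not tested.

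HSPD1 and HSPE1 encode HSP60 and HSP10, partners in the mitochondrial folding chamber whose genes sit head to head. HSPD1 averaged 39963 ± 3406 in SP cells, 38775 ± 8534 in non-SP cells and 32805 ± 444 in unsorted cells, and all SP arrays were above both unsorted arrays. HSPE1 averaged 15762 ± 4366 in SP cells, 17562 ± 8333 in non-SP cells and 20081 ± 60.4 in unsorted cells, and all SP arrays were below both unsorted arrays. The SP minus unsorted differences were 0.28 ± 0.23 for HSPD1 and -0.40 ± 0.35 for HSPE1, and neither passed. A second bright HSPD1 probe set had the opposite sign (-0.64). It read 6435, 21707, 12082 and 16803 in SP cells, and 20036 and 20460 in unsorted cells. Dimmer HSPD1 probe sets above the median gave -0.39 and 0.64. For further probe sets, here and later, the median is that of all probe sets with 1 gene symbol.

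HSPB1, the small heat shock protein HSP27, read 8948, 11799.5, 13765 and 11188 in SP cells, 10905, 16409, 7393 and 11124 in non-SP cells, and 13249 and 11904 in unsorted cells. SP and non-SP arrays lay on both sides of the unsorted ones. The other tested gene of the class, HSPB8, averaged 3804 ± 1838 in SP cells, 4102 ± 2039 in non-SP cells and 4052 ± 59.5 in unsorted cells. A second, dimmer HSPB8 probe set read 353 to 645.5 on the sorted arrays, all above 166 and 203 in unsorted cells. It gave 1.23 for SP and 1.33 for non-SP against unsorted cells, where the one used gave -0.21 and -0.11.

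J proteins bring clients to HSP70 and start its ATP hydrolysis. DNAJB1, the heat-inducible HSP40, read 23076, 27735, 18993 and 20199 in SP cells, 23085, 22459, 17385 and 17606 in non-SP cells, and 12669.5 and 14714 in unsorted cells. All 8 sorted arrays were above both unsorted arrays, while SP and non-SP overlapped. The difference from unsorted cells was 0.70 ± 0.23 for SP (1.63-fold, adjusted p = 0.116, and 0.0498 without non-SP c) and 0.55 ± 0.23 for non-SP cells (1.46-fold, adjusted p = 0.202). A second DNAJB1 probe set gave 0.86 and 1.18 for the same comparisons and -0.32 for SP minus non-SP, where the one used gave 0.16 ± 0.19.

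DNAJC27, which joins a J domain to a RAB-like GTPase, read 298, 261, 241 and 260.1 in SP cells, 179, 316, 233 and 271 in non-SP cells, and 128 and 108 in unsorted cells. Every sorted array was above both unsorted arrays. It was 2.18-fold as high in SP as in unsorted cells (1.12 ± 0.30, adjusted p = 0.0612, and 0.0443 without non-SP b) and 2.02-fold as high in non-SP as in unsorted cells (1.02 ± 0.30, adjusted p = 0.073). A second probe set above the median gave 1.03 and 0.87.

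Separation from the unsorted arrays was counted over all chaperone genes. Of the 66 chaperone genes, 9 had every SP array above both unsorted arrays (13.6%, against 21.4% of all genes) and 11 had every SP array below them (16.7%, against 15.5%). For non-SP cells it was 9 above (13.6%, against 15.6%) and 5 below (7.58%, against 16.3%). Between SP and non-SP cells, 0 of 66 were separate and higher in SP (against 1.01% of all genes), and 1 was separate and lower (1.52%, against 0.576%). This was DNAJA4, a J protein of the cytosol, at 236, 257, 252 and 248 in SP cells and 342, 289, 328 and 269 in non-SP cells, and its difference of -0.29 ± 0.21 did not pass.

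DNAJB9 and DNAJB11 are J proteins of the endoplasmic reticulum, and DNAJB9 is known to be induced by unfolded protein there. DNAJB9 read 3360.5, 5512, 2114 and 2171 in SP cells, 3255, 4834, 1587 and 1847 in non-SP cells, and 1461 and 1657 in unsorted cells. Arrays a and b were the higher ones of both sorted populations, and non-SP c lay between the unsorted arrays. The SP minus unsorted difference was 0.96 ± 0.44 (adjusted p = 0.28), and the 2 other DNAJB9 probe sets gave -0.58 and 0.31. The difference passed in other limma fits of the same arrays. It was 0.96 (adjusted p = 0.0167) as the mean of both pairs of letters in a fit of 5 groups. With the letter as a replicate block it was 1.52 (adjusted p = 0.00373). That block joins unsorted a and b to sorted a and b, although their titles name other replicate groups. It rests mainly on those letters, which alone gave 1.46 in the fit of 5 groups. DNAJB11 averaged 11028 ± 1293 in SP cells, 15342 ± 6788 in non-SP cells and 17664 ± 995 in unsorted cells, with a SP minus unsorted difference of -0.69 ± 0.31 (adjusted p = 0.267). DNAJC1, a membrane J protein of the same compartment, averaged 9317 ± 1249.6 in SP cells, 7377 ± 732 in non-SP cells and 6719.9 ± 147 in unsorted cells.

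DNAJC16, a membrane-bound J protein, read 847, 737, 802 and 857 in SP cells, 404, 418, 793 and 654 in non-SP cells, and 717 and 917 in unsorted cells. Its low arrays were non-SP a and b. DNAJC13, an endosomal J protein, had the lowest non-SP minus unsorted value of the tested chaperone genes (-0.92 ± 0.32, adjusted p = 0.128), and its SP minus unsorted value was -0.47 ± 0.32. DNAJA1, a cytosolic and heat-inducible partner of HSP70, averaged 17535 ± 3245 in SP cells, 19363 ± 6755 in non-SP cells and 14927 ± 783 in unsorted cells. DNAJC15, a mitochondrial J protein, averaged 8461 ± 1689 in SP cells, 9962 ± 3997 in non-SP cells and 7442 ± 476 in unsorted cells. The non-SP minus unsorted values of DNAJB6, DNAJB14 and DNAJC24 were -0.72 ± 0.30, -0.52 ± 0.27 and 0.66 ± 0.32, and the SP minus unsorted value of DNAJC17 was -0.67 ± 0.32. None of them passed.

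In the probe sets used, all 8 TRiC genes varied more among non-SP than among SP arrays (SD on the log2 scale). This was not particular to the class. The DNAJA genes, HSPD1, HSPE1, HSPB1 and HSPB8 did so too, while BAG3, HSPA6 and HSP90B1 were among those that varied more among SP arrays. CCT2 read 18624, 20993, 16113 and 17946 in SP cells, 24040.2, 27057, 12076 and 20396 in non-SP cells, and 19580.2 and 19278 in unsorted cells. Its highest and its lowest array were both non-SP, b and c. A second CCT2 probe set was lowest in SP a and varied more among SP arrays. It read 1602, 6447, 5840 and 8950 in SP cells, 15742, 17734, 7393 and 9974 in non-SP cells, and 11707 and 11953 in unsorted cells. Its SP minus non-SP difference was -1.31, where the one used gave -0.13. Of the 8 CCT genes, 7 were highest in non-SP b, against 18% of all genes, and 6 were lowest in non-SP c, against 16.9% of all genes. CCT6B, known from testis, ran the other way, highest in non-SP c and lowest in non-SP b. The median SP minus non-SP difference over the class was -0.10, with values of -0.22 to 0.15.

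BAG proteins release nucleotide and clients from HSP70. BAG3, the heat-inducible member that directs clients to autophagy, read 3948, 9144, 4583 and 2866 in SP cells, 3675, 5686, 3101 and 2435 in non-SP cells, and 2437 and 3309 in unsorted cells. SP was above non-SP at every letter and array b was the highest of each sorted population, with wide overlap between the groups. The difference was 0.40 ± 0.33 against non-SP cells (adjusted p = 1.00) and 0.72 ± 0.41 against unsorted cells (adjusted p = 0.39). BAG4 read 1609.7, 1450.2, 1496 and 1581 in SP cells, 1478, 2025, 1766 and 1214 in non-SP cells, and 2326 and 2622 in unsorted cells. Every sorted array was below both unsorted arrays, with differences of -0.69 ± 0.25 for SP (adjusted p = 0.161) and -0.63 ± 0.25 for non-SP cells (adjusted p = 0.179). The other BAG4 probe sets gave -1.13 and -1.21 for SP cells. BAG1, the first BAG protein described, averaged 1536 ± 326 in SP cells, 1832 ± 387 in non-SP cells and 1759 ± 7.99 in unsorted cells.

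**Figure D2:**
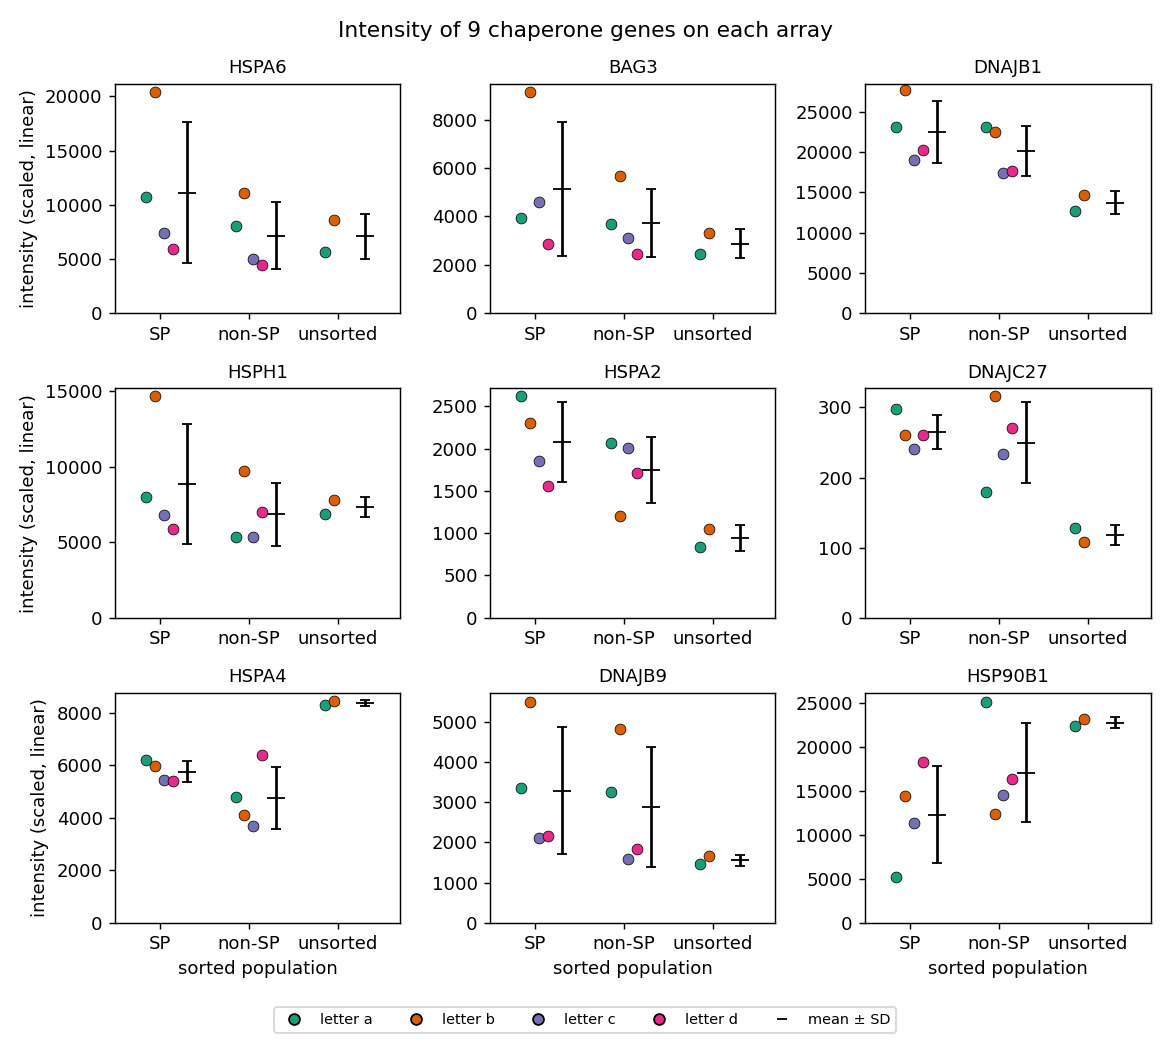
Intensity of 9 chaperone genes on each array (linear scale from 0) for SP, non-SP and unsorted cells, with the mean and SD beside each group. HSPA2, DNAJB1 and DNAJC27 are higher and HSPA4 is lower on all 8 sorted arrays than on both unsorted arrays, and HSPA6, BAG3, HSPH1 and DNAJB9 peak in SP b.

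Arrays of the same population differed among chaperone genes about as much as among other genes, with a median SD within the sorted groups of 0.37 (log2) for the 66 genes and 0.37 for all genes. Of the 66 genes, 37 had their highest array in SP b or non-SP b (56.1%), against 26.2% of all genes, and 12 had their lowest there (18.2%), against 29.9%. Non-SP c was the lowest array for 20 of 66 (30.3%), against 16.9% of all genes. Of the 11 heat-inducible genes, 6 were highest in SP b (HSPA6, HSPH1, HSPA4L, DNAJB1, DNAJB4 and BAG3) and 4 in non-SP b (HSPB1, HSPD1, HSPE1 and DNAJA1). HSP90AA1, the remaining one, was highest in SP a. The median deviation of these 11 genes from their own means was 0.52 in SP b, 0.49 in non-SP b, -0.47 in non-SP c and -0.21 in unsorted a, while the median over all genes lay between -0.09 and 0.09 on every array. These values describe single arrays, and genes on 1 array are not independent of each other.

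**Figure D3:**
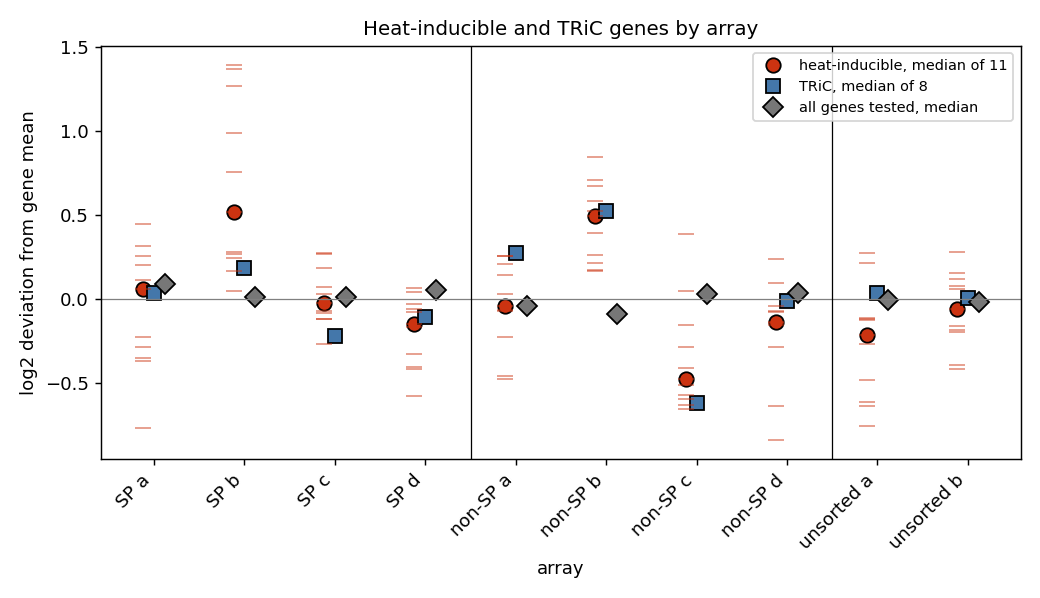
Log2 deviation of heat-inducible and TRiC genes from each gene's mean over the 10 arrays, with medians of the 11 heat-inducible genes, of the 8 TRiC genes and of all genes tested, and short lines for single heat-inducible genes. The heat-inducible median stands at 0.52 in SP b, 0.49 in non-SP b and -0.47 in non-SP c.

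**Figure D4:**
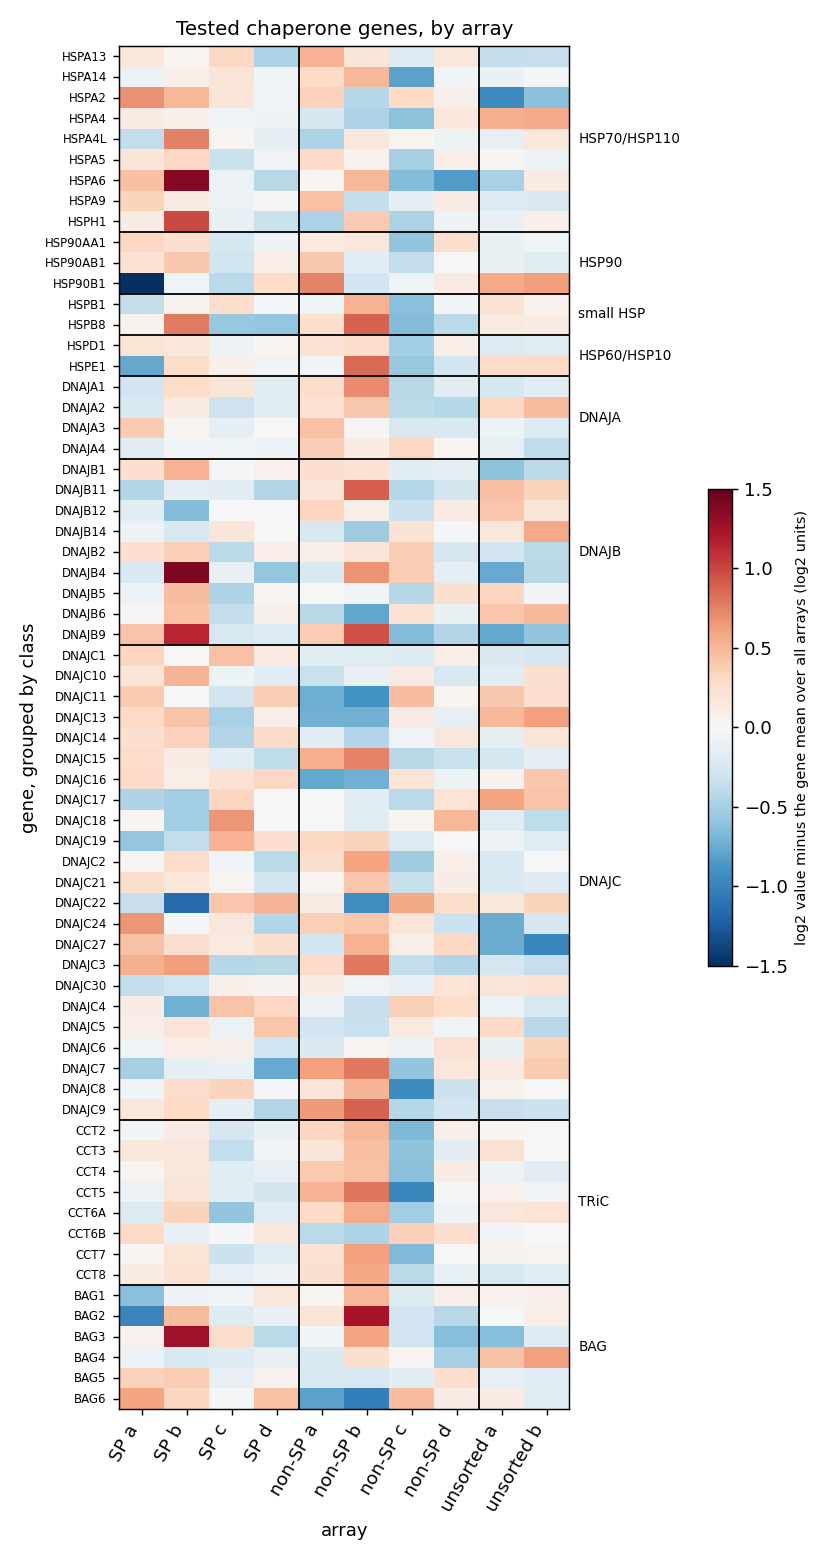
Log2 value of each of the 66 tested chaperone genes on each of the 10 arrays, minus that gene's mean over all arrays, in rows by class. Red is above and blue below the gene's mean. Non-SP b is red and non-SP c blue for most TRiC genes.

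Earlier results of these data had shown the sorted arrays dividing into letters a and b and letters c and d. SP and non-SP cells were therefore also compared within each pair of letters, with 5 groups in 1 limma fit and 2 arrays in each. That split was taken from these same arrays, so the p-values of this fit do not allow for the choice. Within letters a and b, 910 genes passed (9.2%), among them 6 of 66 chaperone genes (9.09%), a share close to that of all genes. BAG6, which acts in membrane protein targeting and apoptosis, was higher, at 4666 and 3860.2 in SP a and b, against 1763 and 1514 in non-SP a and b (1.37 ± 0.24, adjusted p = 0.0213). DNAJC13 (1.09 ± 0.24), DNAJC16 (0.93 ± 0.23) and DNAJC11, a mitochondrial membrane J protein (1.02 ± 0.27), were higher too, with adjusted p of 0.0257, 0.0342 and 0.0386. Together 4 of 66 were higher (6.06%), against 7.13% of all genes. DNAJC7, a cytosolic co-chaperone of HSP70 and HSP90, was lower, at 1457 and 1852 in SP a and b, against 3146 and 3567 in non-SP a and b (-1.03 ± 0.29, adjusted p = 0.0447). DNAJC19, of the mitochondrial import motor, was lower as well (-0.80 ± 0.21, adjusted p = 0.0381), which made 2 of 66 lower (3.03%), against 2.07% of all genes.

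Within letters c and d, 0 genes and 0 chaperone genes passed in limma (0%), and 2 of 66 chaperone genes (DNAJC8 and DNAJC19, 3.03%) had an unadjusted p under 0.05, against 4.4% of all genes. BAG6 read 3022 and 4207 in SP c and d, against 4261 and 3340.5 in non-SP c and d (-0.08 ± 0.24), and these arrays overlapped. DNAJC19 read 1574 and 1829 in SP a and b, against 2918 and 2986 in non-SP a and b. In letters c and d it read 3374 and 2801 in SP cells, against 2038 and 2369 in non-SP cells (0.48 ± 0.21). SP arrays lay below the non-SP arrays in the first pair of letters and above them in the second. The difference between the pairs of letters passed for 0 genes (0%) in limma. Its smallest adjusted p among chaperone genes was 0.0993, and 14 of 66 (21.2%) had an unadjusted p under 0.05, against 26.8% of all genes.

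The calls within letters a and b changed when single arrays were left out, which leaves 1 array in an arm, taken to vary like the other groups. Without SP a, 0 chaperone genes and 1 gene in all passed, and without non-SP b 0 chaperone genes and 0 genes passed. Without SP b, 4 chaperone genes passed (BAG2, BAG6, DNAJC11 and HSP90B1) among 584 genes, and without non-SP a, 3 passed (BAG6, DNAJB11 and HSPA2) among 525. Every one of the 6 genes kept its sign in each of these fits. BAG6 had 1.24 ± 0.29 without SP a (adjusted p = 0.117) and 1.26 ± 0.29 without non-SP b (adjusted p = 0.0879), and over all 4 fits its difference ran from 1.24 to 1.51. DNAJC13 ran from 1.02 to 1.16, DNAJC16 from 0.83 to 1.03, DNAJC11 from 0.83 to 1.21, DNAJC19 from -0.90 to -0.69 and DNAJC7 from -1.20 to -0.85. SP a and SP b are the arrays whose source label names no line, so within these letters the population and that label cannot be told apart. SP a also has the high actin 3' to 5' ratio, whose part in these calls was not tested. Over all letters, the other BAG6 probe sets above the median gave SP minus non-SP differences of 0.66 and 0.76, where the one used gave 0.65 ± 0.30. For DNAJC11, DNAJC19 and DNAJC7, another probe set above the median gave the opposite sign over all letters (-0.14, 0.04 and 0.41). A further one of DNAJC7 gave -1.73, the sign of the one used (-0.62 ± 0.28). Within letters a and b, the other DNAJC19 probe set read 745.5 and 554 in SP cells, against 797 and 811 in non-SP cells. That is the direction of the one used. The DNAJC11 one overlapped there, at 580 and 848 against 728 and 578. For DNAJC7 the first read 1045 and 954 against 377 and 550, and the further one 108 and 117 against 391 and 506.

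**Figure D5:**
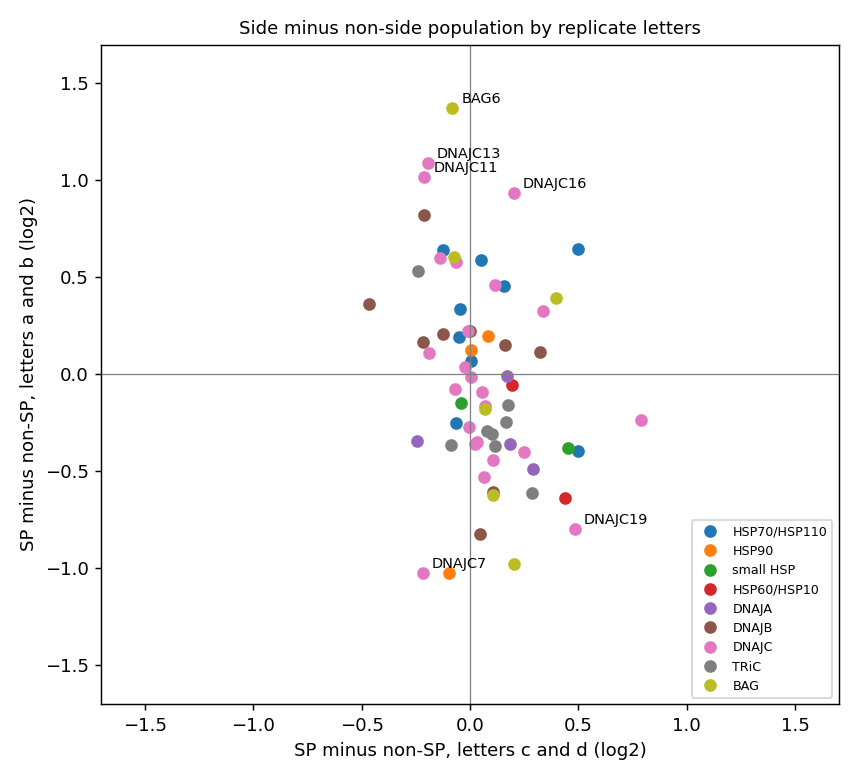
SP minus non-SP difference (log2) of each tested chaperone gene within letters a and b (vertical axis) and within letters c and d (horizontal axis), coloured by class. The 6 labelled genes passed within letters a and b. BAG6 stands at 1.37 on the vertical and -0.08 on the horizontal axis.

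Other genes of the chaperone network passed in none of the comparisons of the 3 groups. There were 0 called of 2 tested on the heat shock factor list (HSF1 and HSBP1), 15 HSP90 co-chaperones and 9 HSP70 regulators. Likewise, 0 were called of 7 prefoldin and CCT cofactors, 6 mitochondrial proteases and 4 genes that handle aggregates. HSF1, the main transcription factor of the heat shock response, read 244, 238, 189 and 199 in SP cells, 105, 118, 267 and 201 in non-SP cells, and 492 and 374 in unsorted cells. Every sorted array was below both unsorted arrays. The difference was -0.97 ± 0.37 for SP (adjusted p = 0.177) and -1.38 ± 0.37 for non-SP cells (adjusted p = 0.052). HSBP1, which binds HSF1, had -0.20 ± 0.28 in non-SP against unsorted cells.

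In the same comparison the co-chaperone SGTA had -1.60 ± 0.52 (adjusted p = 0.103), and HYOU1, an HSP110 of the endoplasmic reticulum, had -1.08 ± 0.30 (adjusted p = 0.0572). VCP, the ATPase that extracts ubiquitinated proteins, had -1.11 ± 0.31 (adjusted p = 0.0586). GRPEL2, a nucleotide exchange factor of mitochondrial HSP70, had 0.65 ± 0.23, the prefoldin subunits PFDN1 and PFDN2 had -0.82 ± 0.29 and 0.58 ± 0.33, and the mitochondrial proteases YME1L1 and LONP1 had -0.45 ± 0.21 and -0.38 ± 0.38. AHSA2P had 0.92 ± 0.38 there. In SP against unsorted cells TOMM70, a mitochondrial import receptor that binds HSP90, had 0.64 ± 0.25, and the cyclophilin PPID had 0.73 ± 0.29. CDC37, which brings kinases to HSP90, and the myosin chaperone UNC45A had SP minus non-SP values of -0.55 ± 0.22 and 0.54 ± 0.23. All 7 prefoldin and CCT cofactor genes lay below 0 in SP minus non-SP within letters a and b (-0.58 to -0.29) and above 0 within letters c and d (0.08 to 0.42), and 0 of 7 passed in either. The medians over all genes were 0.10 and 0.01. Single non-SP arrays stood out in both pairs of letters. The median deviation of the 7 genes from their own means was 0.44 in non-SP b and -0.55 in non-SP c. It lay between -0.19 and 0.22 on the other arrays. Within letters a and b, HSF1 (1.07 ± 0.30), HYOU1 (0.91 ± 0.23), VCP (0.93 ± 0.26) and UBQLN2, a shuttle to the proteasome (0.84 ± 0.21), were higher in SP cells, with adjusted p of 0.0438, 0.0364, 0.0439 and 0.0339. With 1 array left out their differences ran from 0.99 to 1.15 for HSF1, from 0.84 to 0.98 for HYOU1, from 0.67 to 1.20 for VCP and from 0.68 to 0.99 for UBQLN2. VCP and UBQLN2 passed without non-SP a (adjusted p = 0.0427 and 0.0434), and none of the 4 passed in the other 3 fits. In all, 4 of 43 network genes tested were called higher within letters a and b (9.3%), against 7.13% of all genes. They were 1 of 2 on the heat shock factor list (HSF1), 1 of 9 HSP70 regulators and 2 of 4 genes that handle aggregates. Of the 43 genes, 0 were called lower, against 2.07% of all genes.

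Of the 66 tested genes, 55 had further probe sets, 105 in all. The further probe set had the opposite sign to the one used in 47 of 105 for SP minus non-SP, 45 for SP minus unsorted and 37 for non-SP minus unsorted. Among the 79 that lay above the median of all probe sets with 1 gene symbol it was 34, 35 and 26. That cutoff was lower than the median gene used for testing, and the probe sets used for HSPA1L and HSPA12A lay above it. The 15 genes below the median gene in mean level were not tested. They were DNAJB7, DNAJB8 and DNAJB13, DNAJC5B, DNAJC5G, DNAJC12 and DNAJC28, HSPA1L, HSPA12A and HSPA12B, and HSPB2, HSPB3, HSPB6, HSPB7 and HSPB9. Among them, HSPA1L, an HSP70 known from testis, averaged 158 ± 36.3 in SP cells, 137 ± 28.8 in non-SP cells and 52.8 ± 6.58 in unsorted cells, and every sorted array was above both unsorted arrays.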

How the data were processed

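Expression was measured on 10 Affymetrix HG-U133 Plus 2 arrays. Intensities were deposited already summarised per probe set and scaled, with GCOS 1.4 named per the submitters' processing notes; which algorithm summarised the probes is not given in the sources consulted, and every array had a trimmed mean near 500.1. Of 54675 probe sets, 41097 had 1 gene symbol, 1801 several and 11777 none. Values were taken as log2(intensity + 6.1), 6.1 being the 10th percentile of intensity, so fold changes of dim genes are understated. Genes below the median in mean level (an intensity of about 149) were not tested. limma 3.58.1 in R 4.3.3 fitted all 3 groups (lmFit, eBayes with trend), with Benjamini-Hochberg adjustment over 9888 genes, and a second fit used 5 groups. The split by letters in that second fit was drawn from these data, and its p-values do not allow for the choice.

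Named genes were the 10 of smallest p in each comparison, the highest of each class, a list of well-known chaperones, and up to 2 per network list. HSPB8, HSPA1L, HSPA4L, DNAJA4, DNAJB4, DNAJC8, DNAJC19, BAG2, CCT6A and CCT6B fall outside this rule and were chosen after their values were seen. The genes and lists were chosen with earlier results of these data known. Alternatives covered the added constant, the floor, the filter, every probe set on its own, the arrays kept, the fit and the replicate block.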

Additional observations from a re-analysis of the deposited data

Results flagged for a closer look

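Gaps within the groups of 4 arrays were examined for the 32 named chaperone genes in SP and non-SP cells, 64 tests in all, of which chance flags about 1 in 20. DNAJC1 read 8470.0 in non-SP d, far above the other 3 non-SP arrays at 6938 to 7111. On the log2 scale the gap was 0.877 of the group's range, past Dixon's 95% critical value for 4 values. HSP90AA1 read 26252 in non-SP c, far below the other 3 non-SP arrays at 43679 to 46725, and the gap was 0.883 of the range on the log2 scale. Non-SP c is also among the 4 arrays with a low 18S 5' signal.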

How the results depend on the processing

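Counts of chaperone genes called, and of all genes called, moved with these settings, whose causes were not tested unless the setting itself removes genes or arrays. In SP against non-SP cells 1 gene (MACC1) passed with a constant of 16, with a floor at the array median, under the replicate block and as the mean of both pairs of letters in the fit of 5 groups; within letters a and b 6 chaperone genes and 910 genes passed, and the DNAJA median was -0.35, against 0.18 within letters c and d. In SP against unsorted cells the filter at the 75th percentile left 100 genes called and a DNAJB median of -0.41, and no filter gave 0.0878. Every probe set on its own gave 3 chaperone probe sets (BAG2, DNAJC7 and HSPA1L), 431 in all and a BAG median of 0.31. Further probe sets above the median gave 2.05 for BAG2 and 2.81 and 0.50 for DNAJC7, where those used gave -0.25 and -0.63. Variances without a trend called 1 (DNAJC27), a fit of the 2 groups alone 3 (DNAJB11, DNAJC27 and HSPA2) and 451 genes, and arrays labelled AGS 97 genes. Letters a and b of the sorted arrays called 7 and 1374, letters c and d 846 genes, and the mean of both 5 and 1344. In non-SP against unsorted cells no filter gave medians of 0.41 for DNAJB and 0.13 for DNAJC, and the 75th percentile 146 genes and a DNAJC median of 0.21. Every probe set on its own gave 5 chaperone probe sets, 736 in all, and medians of -0.24 for BAG and 0.21 for DNAJC. The 5 belonged to BAG2, DNAJB1, HSPB8 and DNAJC7, the last with more than 1. Further probe sets above the median gave 2.45 for BAG2, 2.40 and 2.23 for DNAJC7 and 1.33 for HSPB8. Those used gave 0.14, -0.01 and -0.11. Variances without a trend called 1 (DNAJC27), and the 2 groups alone 202 genes. Letters a and b called 14 and 2205, with medians of 0.15 for DNAJB and 0.0692 for DNAJC, letters c and d 2 and 1177 with a DNAJA median of -0.0811, and the mean of both 6 and 1572.

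Leaving out 1 array at a time gave 0 to 1 genes for SP against non-SP, 10 to 403 for SP and 17 to 665 for non-SP against unsorted cells, 0 to 1128 within letters a and b and 0 to 1 within letters c and d. Chaperone genes called were 0 to 2 for SP and 0 to 1 for non-SP against unsorted cells and 0 to 8 within letters a and b. DNAJC medians ran from -0.0825 to 0.11, from 0.0613 to 0.17 and from -0.0130 to 0.11 in the 3 comparisons. With a replicate block by letter, 5 chaperone genes (BAG3, DNAJB1, DNAJB9, HSPA2 and HSPA6) and 746 genes passed in SP against unsorted cells. In non-SP against unsorted cells 3 (DNAJB1, DNAJB9 and DNAJC9) and 969 genes passed, with a DNAJC median of 0.0663. This block joins unsorted a and b to the sorted arrays of those letters, although the titles place them in other replicate groups. With no unsorted c or d, it sets sorted against unsorted cells mainly through letters a and b. The titles name the same replicate group (SPa to SPd) for the SP and the non-SP array of a letter. No label says what a group shares. The letters were not taken as pairs in the main fits, which therefore leave that grouping out. Deviations of SP and non-SP arrays of the same letter correlated at 0.21, 0.50, -0.11 and 0.36 for a, b, c and d. SP a and b correlated best with their own letter, SP c with non-SP d and SP d with non-SP c. Of 2385 values of the named genes under alternatives, 113 had the other sign with no call in either setting, and 52 passed where they had not. None of these values was called over all arrays, so no call could be lost; the 6 calls within letters a and b fell to 0 without SP a and without non-SP b. The number of arrays limits all of these.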
